A study of Homo sapiens with 6 samples.

Results

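Matrix metalloproteinases and the urokinase system are followed here through 10 genes, MMP1, MMP7, MMP10, MMP13, MMP14, MMP15, PLAU, PLAUR, TIMP1 and TIMP2. They were chosen by name, as proteases, plasminogen activator components and inhibitors that are often cited as ETS targets, and make up 10 of the 18417 genes read by a probe with a single gene symbol. Each of them was read by 1 probe. The 6 arrays come from H441, an established human lung adenocarcinoma line grown in DMEM/F12. For 3 arrays the cells had been transfected with a SMARTpool siRNA (Dharmacon) against ETS2, and for the other 3 with a scrambled control siRNA. Lipofectamine RNAiMAX carried the siRNA in each group, and total RNA was taken at 48 h. Each array stands for its own transfection per the series' design text, so the spread is that between transfections of a single line treated with a single reagent per group.

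Matrix metalloproteinases are zinc-dependent endopeptidases that cut collagens, laminins and other matrix proteins, as well as growth factors and receptors at the cell surface. Most are secreted as inactive proenzymes, whereas the membrane types are anchored at the surface and can activate others. Urokinase, bound to its receptor, turns plasminogen into plasmin, which degrades fibrin and activates some of the proenzymes, and the TIMP proteins block the active metalloproteinases. Promoters of several of these genes are known for binding sites of ETS factors and of AP-1, the FOS and JUN family dimer. The comparison asks whether their transcripts move when ETS2, an ETS factor downstream of RAS and ERK signalling, is lowered.

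Promoter windows from RefSeq (GRCh38.p14), running from 250 bases before to 50 bases after a transcription start, were found for 7 of the 10 genes, with 2 windows for PLAU. MMP1, MMP13 and TIMP2 were not matched. The letters searched on each strand were GGAA, the core that ETS factors recognise, and TGANTCA, the AP-1 site. The longer ETS forms CCGGAA and AGGAAG, which contain the core, were searched too. The 5 stretches printed cover the 250 bases before the start, 5′ to 3′ on the gene's strand, with matches to either motif in capitals. They are shown because they place the ETS core of the membrane protease MMP14, the activator PLAU, its receptor PLAUR, the inhibitor TIMP1 and the epithelial protease MMP7, and the AP-1 site of PLAUR and MMP7. They lie at chr14:22836335-22836584 on the plus strand for MMP14, chr10:73910882-73911131 on the plus strand for PLAU (the window of its second start), chr19:43670170-43670419 on the minus strand for PLAUR, chrX:47582186-47582435 on the plus strand for TIMP1 and chr11:102530748-102530997 on the minus strand for MMP7.
MMP14: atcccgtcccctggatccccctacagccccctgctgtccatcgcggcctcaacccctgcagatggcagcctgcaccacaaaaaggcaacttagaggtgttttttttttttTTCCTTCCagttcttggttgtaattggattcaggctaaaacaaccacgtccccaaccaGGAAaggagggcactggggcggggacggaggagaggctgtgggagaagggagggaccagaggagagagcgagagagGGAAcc
PLAU: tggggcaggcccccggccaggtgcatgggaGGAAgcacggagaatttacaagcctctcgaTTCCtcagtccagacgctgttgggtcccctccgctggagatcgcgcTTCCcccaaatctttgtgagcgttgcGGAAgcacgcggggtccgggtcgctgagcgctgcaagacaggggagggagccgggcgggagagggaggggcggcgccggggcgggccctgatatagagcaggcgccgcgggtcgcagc
PLAUR: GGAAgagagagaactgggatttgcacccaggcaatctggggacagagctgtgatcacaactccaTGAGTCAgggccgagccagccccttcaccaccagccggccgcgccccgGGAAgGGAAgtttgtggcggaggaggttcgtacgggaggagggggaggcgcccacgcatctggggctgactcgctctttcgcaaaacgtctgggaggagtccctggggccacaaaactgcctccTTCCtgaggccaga
TIMP1: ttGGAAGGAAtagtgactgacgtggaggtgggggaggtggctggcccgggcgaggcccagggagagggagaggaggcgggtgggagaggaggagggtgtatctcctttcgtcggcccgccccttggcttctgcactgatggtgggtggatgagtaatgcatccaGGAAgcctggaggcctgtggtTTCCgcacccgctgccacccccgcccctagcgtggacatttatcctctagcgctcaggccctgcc
MMP7: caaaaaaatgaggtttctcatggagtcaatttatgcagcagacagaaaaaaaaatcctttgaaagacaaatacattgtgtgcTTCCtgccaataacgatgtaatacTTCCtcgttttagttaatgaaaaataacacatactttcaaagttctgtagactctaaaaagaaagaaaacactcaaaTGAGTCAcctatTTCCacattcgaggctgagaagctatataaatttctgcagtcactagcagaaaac

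The ETS core was present in all 7 genes with a window, at 2 to 5 matches per window. It is a short motif, held by 95.5% of all 35116 promoter windows with a median of 3 matches, so its presence does not set these genes apart. The AP-1 site was found in 3 of the 7 genes, MMP7, MMP10 and PLAUR, or 3 of their 8 windows, against 7.71% of all windows. Only the form TGANTCA was searched, so a site that departs from it by a base would be missed. Sites outside the windows were not searched, so a gene without a match here may hold one farther away. In MMP7 the AP-1 site began at position -67 from the start, and the centre of the nearest ETS core lay 10.5 bases away. The corresponding distances were 46.5 bases in PLAUR and 75.5 bases in MMP10. CCGGAA occurred in MMP14, inside the transcribed part of the window, and in 17.2% of all windows. AGGAAG occurred in MMP7, PLAUR, TIMP1 and the second PLAU window, and in 33.6% of all windows. These matches describe letters in a window and are not measured binding.

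**Figure D1:**
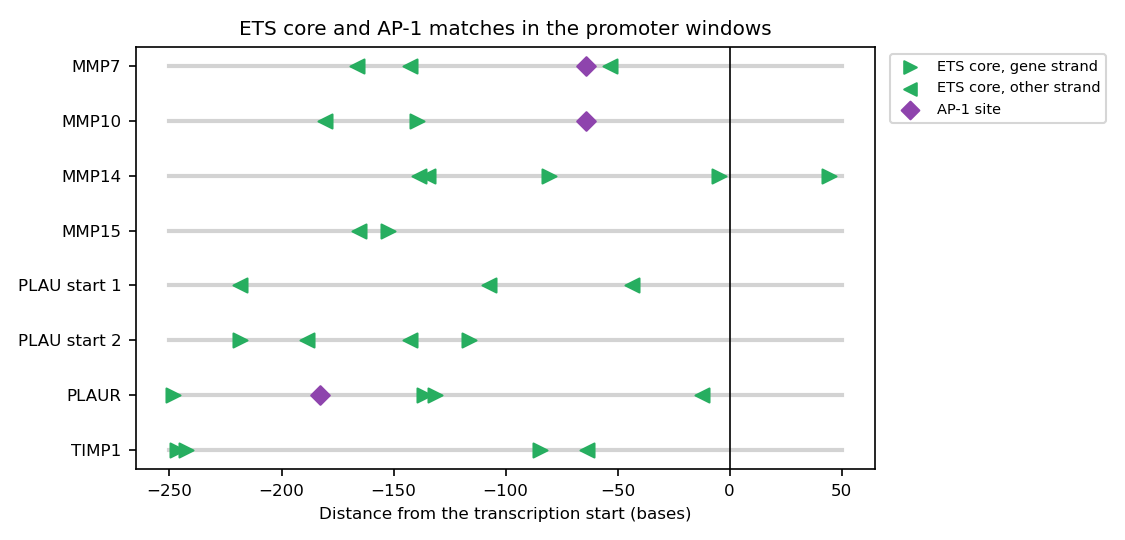
Matches to the ETS core (triangles pointing along the strand of the match) and to the AP-1 site (diamonds) in the 8 promoter windows of 7 genes, by distance in bases from the transcription start (vertical line). The ETS core appears in every window, and the AP-1 site in MMP7, MMP10 and PLAUR.

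Levels are RMA values on the log2 scale, and differences are ETS2 siRNA minus control. The probes of different genes are not calibrated to each other, so each level is set only against a background floor of 6.67, the 95th percentile of the mean levels of 341 olfactory receptor genes. ETS2 itself was measured at 8.87, 8.70 and 8.78 on the ETS2 siRNA arrays, against 9.79, 9.91 and 9.79 on the control arrays. It thus fell to 48.4% of its control level (limma difference -1.05, adjusted p = 0.000254). Correlations across genes lay between 0.9988 and 0.9991 within the ETS2 siRNA group and between 0.9982 and 0.9989 within the control group. Between the groups they lay between 0.9974 and 0.9982. In fits with an array left out, 735 genes changed (limma, adjusted p under 0.05) without control replicate 2, against 213 to 421 without any other array. Of 11 lung epithelial markers, 10 lay above the floor, the exception being the surfactant gene SFTPC, and their mean level ran from 11.81 to 11.83 after ETS2 siRNA and from 11.88 to 11.89 in control cells. Of the 11 markers, 0 rose and 2 fell by limma (18.2%, against 4.91% of all genes), SFTPB by 0.36 and SLC34A2 by 0.29. The differences of 5 of the 11 were above 0 and the others below. The largest above 0 was that of KRT19 (0.11, adjusted p = 0.182 by limma), with CDH1 at 0.06 and KRT7 at 0.04. The part of these marker differences in the protease results was not tested. Of 6 endothelial markers, PECAM1, CDH5, VWF and TEK lay below the floor, and of 9 fibroblast markers, DCN, PDGFRA, THY1 and FAP. KDR (means of 9.61 after ETS2 siRNA and 9.80 in control cells) and CLDN5 (7.88 and 7.80) lay above the floor on all 6 arrays. So did the fibroblast markers COL1A1 (9.05 and 8.95), LUM (8.98 and 9.03), COL1A2 (6.95 and 6.98) and COL3A1 (7.06 and 7.04). No gene of either list changed at an adjusted p under 0.05 by limma. The fibroblast marker PDGFRB lay at the floor, with means of 6.58 after ETS2 siRNA and 6.68 in control cells and 3 of 6 arrays above it. Of the macrophage markers 4 of 6 lay above it, and of the neutrophil markers 1 of 5. Their mean levels overlapped between the groups, at 7.05 to 7.17 after ETS2 siRNA and 7.09 to 7.12 in control cells for macrophages, and at 6.22 to 6.30 and 6.17 to 6.31 for neutrophils. The fibroblast list stood at 6.61 to 6.66 and 6.56 to 6.67, and the endothelial list reached 7.03 and 7.04. In bulk RNA a smaller share of cells that express a gene and less of its RNA per cell cannot be told apart.

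Of the 10 genes, 1 changed, the collagenase MMP13, which fell (limma, adjusted p under 0.05 over all genes, where 4.91% of all genes changed with 2.28% higher and 2.63% lower, a balance that turned under each rescaling of the arrays). None of the other 9 passed that test. At an unadjusted p under 0.05 there were 3, MMP13, MMP14 and TIMP2, against 18.5% of all genes. The arrays of the groups did not overlap for 5 of the 10 genes, lower after ETS2 siRNA for MMP13 and TIMP2 and higher for MMP10, MMP14 and PLAU, where 23.1% of all genes did not overlap, 11.5% lower and 11.6% higher. The median difference of the 10 genes was 0 and that of all genes 0.00333. The smallest p that an exact permutation test of 3 arrays against 3 allows is 0.1, so each gene was tested in the limma fit across all genes alone.

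**Figure D2:**
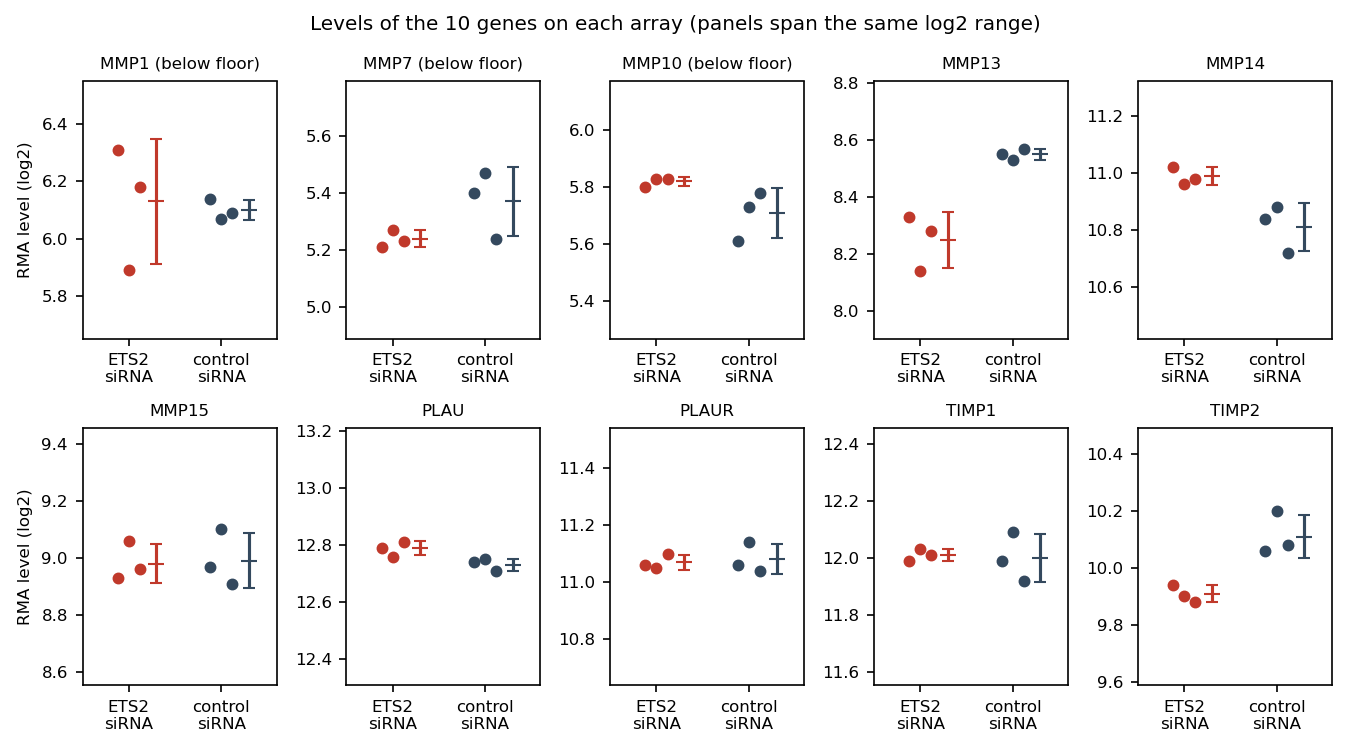
RMA level (log2) of the 10 genes on each of the 6 arrays, ETS2 siRNA in red and control siRNA in dark blue, with the mean and SD beside the points (n = 3 per group). The groups separate downward for MMP13 and TIMP2 and upward for MMP10, MMP14 and PLAU. MMP1, MMP7 and MMP10 lie below the floor of 6.67 on all arrays.

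MMP13, or collagenase 3, cuts fibrillar collagen with a preference for type II. Its level was 8.33, 8.14 and 8.28 on the ETS2 siRNA arrays, against 8.55, 8.53 and 8.57 on the control arrays. Every ETS2 siRNA array was below every control array, and the ETS2 siRNA arrays were the more scattered, with 8.25 ± 0.098 after ETS2 siRNA and 8.55 ± 0.02 in control cells (SD, n = 3 each). The log2 difference of -0.30 (limma SE 0.0536, 95% interval from -0.42 to -0.18, adjusted p = 0.0196) left 81.2% of the control level, with an interval from 74.6% to 88.5%. MMP13 ranked 456 of 18417 genes by p. With 1 array left out the differences lay between -0.34 and -0.24, their direction being fixed because the groups do not overlap. The call was lost without ETS2 siRNA replicate 2 (adjusted p = 0.0587) or 3 (adjusted p = 0.0762) or without control replicate 1 (adjusted p = 0.0675) or 3 (adjusted p = 0.0737). It was also lost when every probe of the array was tested on its own (adjusted p = 0.0704).

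The other secreted metalloproteinases of the set were at background. MMP1, the interstitial collagenase, stood at 6.31, 5.89 and 6.18 after ETS2 siRNA and at 6.14, 6.07 and 6.09 in control cells. The ETS2 siRNA arrays bracketed the control arrays, and the SD of 0.22 after ETS2 siRNA compared with 0.036 in control cells. MMP7, or matrilysin, a short protease made by glandular epithelia, stood at 5.21, 5.27 and 5.23 after ETS2 siRNA and at 5.40, 5.47 and 5.24 in control cells. MMP10, or stromelysin 2, stood at 5.80, 5.83 and 5.83 after ETS2 siRNA and at 5.61, 5.73 and 5.78 in control cells. All 6 arrays lay below the floor for each of these 3 genes, so their differences of 0.03, -0.13 and 0.11 (adjusted p = 0.933, 0.294 and 0.28 by limma) are differences between values not above background. MMP10 is among the 5 genes whose groups did not overlap, but it has no reading above the floor in either group. A response of MMP1, MMP7 or MMP10 to ETS2 siRNA could not be read from these arrays.

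MMP1, MMP7, MMP10 and MMP13 share a position that played no role in their choice. In the gene order of GRCh38.p14 on chromosome 11, the stretch from MMP7 to MMP13 holds 9 protein-coding genes, all of them metalloproteinases, in the order MMP7, MMP20, MMP27, MMP8, MMP10, MMP1, MMP3, MMP12 and MMP13. All 9 were measured. MMP13, at the end of the row, was above the floor on all 6 arrays, and the other 8 were below it on all 6. MMP12, the macrophage elastase next to MMP13, had group means of 4.74 after ETS2 siRNA and 4.76 in control cells, and MMP3, or stromelysin 1, had 5.34 and 5.33. The differences of the 8 genes below the floor lay between -0.13 and 0.11, so MMP13 is the member of the cluster whose difference can be read here.

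**Figure D3:**
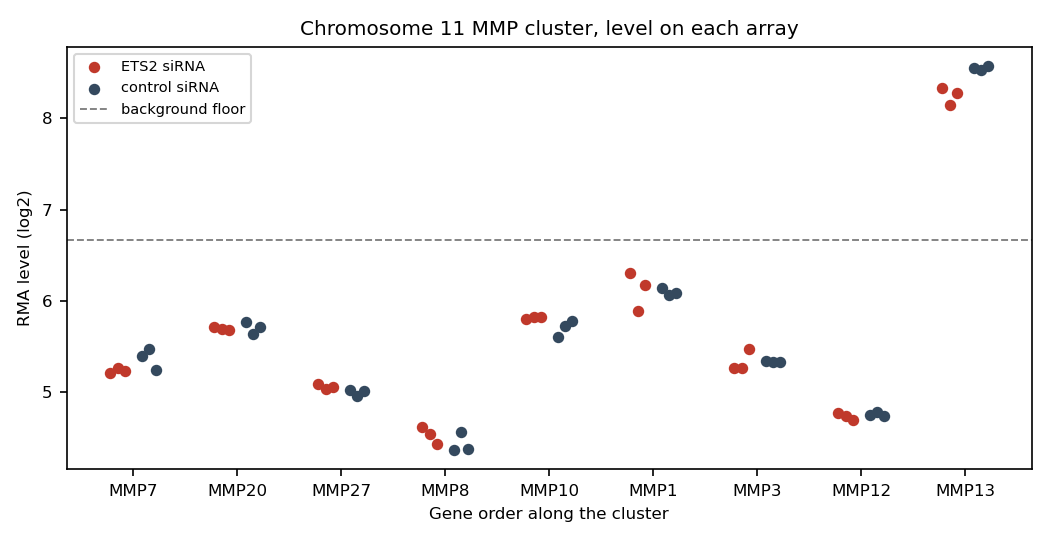
RMA level (log2) on each array for the 9 metalloproteinase genes of chromosome 11 in their order along the chromosome, ETS2 siRNA in red and control siRNA in dark blue, with the background floor of 6.67 as a dashed line. MMP13 alone lies above the floor, with its ETS2 siRNA points under its control points.

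The membrane-type proteases were above the floor on all arrays. MMP14, or MT1-MMP, cuts collagen at the cell surface and activates the proenzyme of MMP2. It stood at 11.02, 10.96 and 10.98 after ETS2 siRNA, against 10.84, 10.88 and 10.72 in control cells. Every ETS2 siRNA array was above every control array, opposite to MMP13, and the difference was 0.17 (limma SE 0.0501, 95% interval from 0.06 to 0.29). That is 113% of the control level, with an unadjusted p of 0.00838 and an adjusted p of 0.1, so MMP14 did not pass the test over all genes. It passed in 3 of 17 alternatives, namely with an intensity trend (adjusted p = 0.00887), with array weights (adjusted p = 0.0347) and among the brighter genes alone (adjusted p = 0.0218), and in none of the 6 fits with an array left out. MMP15, or MT2-MMP, stood at 8.93, 9.06 and 8.96 after ETS2 siRNA and at 8.97, 9.10 and 8.91 in control cells. The groups overlapped, and the difference of -0.01 had a 95% interval from -0.15 to 0.13, or 90.3% to 109% of the control level.

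PLAU, which encodes urokinase, stood at 12.79, 12.76 and 12.81 after ETS2 siRNA and at 12.74, 12.75 and 12.71 in control cells. The ETS2 siRNA arrays were all above the control arrays, by margins as small as 0.01 between the nearest arrays. The difference of 0.05 (limma SE 0.0374, adjusted p = 0.533) had a 95% interval from -0.03 to 0.14, which allows 97.8% to 110% of the control level. PLAU was the least scattered of the 10 genes, with a pooled SD of 0.0231, smaller than in all but 5.4% of genes. PLAUR, the receptor that holds urokinase at the cell surface, stood at 11.06, 11.05 and 11.10 after ETS2 siRNA and at 11.06, 11.14 and 11.04 in control cells. Its groups overlapped, with a difference of -0.01 and an interval from -0.11 to 0.09 (92.8% to 106% of the control level). For this pair, a fall as large as that of MMP13 lies outside the intervals.

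Of the inhibitors, TIMP1, which acts on most secreted metalloproteinases, stood at 11.99, 12.03 and 12.01 after ETS2 siRNA and at 11.99, 12.09 and 11.92 in control cells. The groups overlapped, and the difference of 0.01 had an interval from -0.10 to 0.12. TIMP2, which inhibits MMP14 and also takes part with it in the activation of the MMP2 proenzyme, stood at 9.94, 9.90 and 9.88 after ETS2 siRNA, against 10.06, 10.20 and 10.08 in control cells. Every ETS2 siRNA array was below every control array. The difference of -0.21 (limma SE 0.0481, 95% interval from -0.32 to -0.10) is 86.7% of the control level, and its adjusted p of 0.0509 missed the threshold narrowly. TIMP2 passed in 5 of 17 alternatives, with adjusted p between 0.00436 and 0.18 over all of them, and in none of the 6 fits with an array left out.

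**Figure D4:**
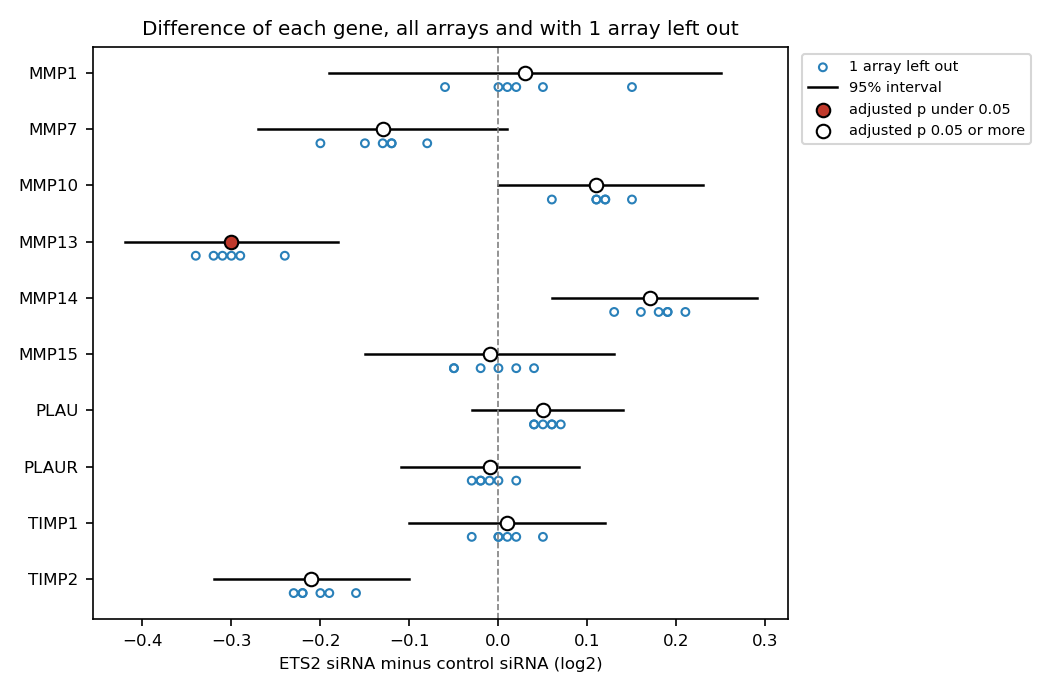
Difference of each of the 10 genes, ETS2 siRNA minus control (log2), with its 95% interval from all 6 arrays and, as open blue circles, the difference with each array left out in turn. MMP13 (-0.30, filled), TIMP2 (-0.21) and MMP7 (-0.13) lie below 0 in every fit shown. MMP14 (0.17), MMP10 (0.11) and PLAU (0.05) lie above it in every fit shown, and MMP7 and MMP10 are below the background floor. For MMP13, TIMP2, MMP14, MMP10 and PLAU the sign is fixed, because their groups do not overlap.

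Over the 6 arrays, the genes whose pattern was most like that of MMP13 were ZNF431 (Pearson r = 0.991), NEDD9 (0.99) and KCTD21 (0.988), out of 12937 other genes with a mean above the floor. Of these, 101 had a correlation over 0.95, which 6 arrays in 2 groups make easy to reach, and the values are given as a description. KCTD21 fell by 0.41 and NEDD9 by 0.30 (limma adjusted p = 0.00774 and 0.0173), while ZNF431 had a difference of -0.12 (adjusted p = 0.12).

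Genes that act beside the 10 were followed in 6 lists holding 137 genes, of which 129 were measured and 40 had no group mean above the floor. In all, 13 of the 129 changed, 8 higher and 5 lower (10.1%, against 4.91% of all genes), with a median difference of 0.0133. The lists were chosen with earlier results of these data known, so these shares describe the lists and no excess was tested. Among the 16 other metalloproteinases measured, none changed by limma, with 0 at an unadjusted p under 0.05 as well, and 6 had a group mean above the floor. The 2 with the smallest p were MMP27 (0.06, adjusted p = 0.504) and MMP8, the neutrophil collagenase (0.09, adjusted p = 0.552), each below the floor. MMP9, or gelatinase B, was chosen after its values were seen because it was well above the floor. It averaged 11.23 after ETS2 siRNA and 11.22 in control cells, with an interval of the difference from -0.19 to 0.22. MMP2, the gelatinase that MMP14 and TIMP2 act on and likewise chosen afterwards, was below the floor on all 6 arrays, at means of 6.21 and 6.16.

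In the plasminogen system, 1 of 25 measured genes rose and 0 fell (4%, against 4.91% of all genes), with a median of 0.01. PLGRKT, which encodes a membrane receptor for plasminogen, stood at 8.39, 8.42 and 8.38 after ETS2 siRNA, against 7.89, 8.03 and 7.88 in control cells. All ETS2 siRNA arrays were above the control arrays, and the rise of 0.46 (limma SE 0.0494, adjusted p = 0.00266) held with any array left out. PLAT, the tissue-type activator, was chosen after its values were seen, as the counterpart of PLAU, and averaged 11.64 after ETS2 siRNA and 11.65 in control cells (interval of the difference from -0.10 to 0.08).

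Of 18 inhibitors and partners of metalloproteinases, 2 rose and 1 fell (16.7%, against 4.91% of all genes), with a median of 0. CD44, the hyaluronan receptor, which can hold metalloproteinases at the cell surface, stood at 9.68, 9.65 and 9.60 after ETS2 siRNA, against 9.13, 9.40 and 9.06 in control cells. Control replicate 2 was the highest of the control arrays, and the rise of 0.45 (limma SE 0.0823, adjusted p = 0.0219) lay between 0.38 and 0.55 with an array left out. SPOCK1, a testican proteoglycan, rose by 0.19, and PCOLCE, an enhancer of procollagen processing, fell by 0.21 (adjusted p = 0.0316 and 0.0283). Among the 21 convertases, ADAM and ADAMTS proteases, 1 rose and 0 fell (4.76%, against 4.91% of all genes), with a median of 0.0333. It was ADAM19, a membrane-bound sheddase, at 8.46, 8.54 and 8.60 after ETS2 siRNA and 8.13, 8.27 and 8.11 in control cells (difference 0.36, adjusted p = 0.0127 by limma).

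Of 23 matrix substrates measured, 2 rose and 1 fell (13%, against 4.91% of all genes), with a median of 0.0533. LAMC1, the laminin gamma 1 chain of basement membranes, stood at 11.70, 11.70 and 11.75 after ETS2 siRNA and 11.25, 11.36 and 11.27 in control cells, a rise of 0.42 (limma SE 0.0438, adjusted p = 0.00234) that held with any array left out. TNC, which encodes tenascin C, rose by 0.22 and THBS1, the matricellular protein thrombospondin 1, fell by 0.21 (adjusted p = 0.0301 and 0.0191). Of 26 factors known to act on promoters of this gene family, 2 rose and 3 fell (19.2%, against 4.91% of all genes), with a median of -0.02. A group mean above the floor was found for 25 of the 26, and for 13043 of all 18417 genes, so the 2 shares rest on unlike levels. RUNX2, a runt-domain factor known to bind the MMP13 promoter in bone cells, stood at 7.25, 7.39 and 7.33 after ETS2 siRNA and 7.58, 7.67 and 7.62 in control cells, a fall of 0.30 (limma SE 0.0486, adjusted p = 0.0138). The epithelial ETS factor ELF3 fell by 0.23 and SP3 by 0.17, while FOSL1, the AP-1 subunit FRA1, rose by 0.18 and CTNNB1, which encodes beta-catenin, by 0.17 (adjusted p between 0.0132 and 0.0442). With 1 array left out, between 2 and 10 of these 13 list genes were still called, the fewest without ETS2 siRNA replicate 3 or control replicate 3, and PLGRKT and LAMC1 were called in every such fit. RUNX2 and ELF3 were called in 3 of the 6 fits, ADAM19 in 2, CD44, SPOCK1, TNC, THBS1 and SP3 in 1, and PCOLCE, FOSL1 and CTNNB1 in 0. The inhibitors and partners had 2 rises and 0 falls after scaling on ribosomal protein genes, and likewise after median-centring. The promoter factors had 2 rises and 2 falls after the former and 1 rise and 2 falls after the latter. The convertases, ADAM and ADAMTS proteases had 3 rises and 0 falls after quantile normalization. The remaining list counts did not change under these 3 rescalings.

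**Figure D5:**
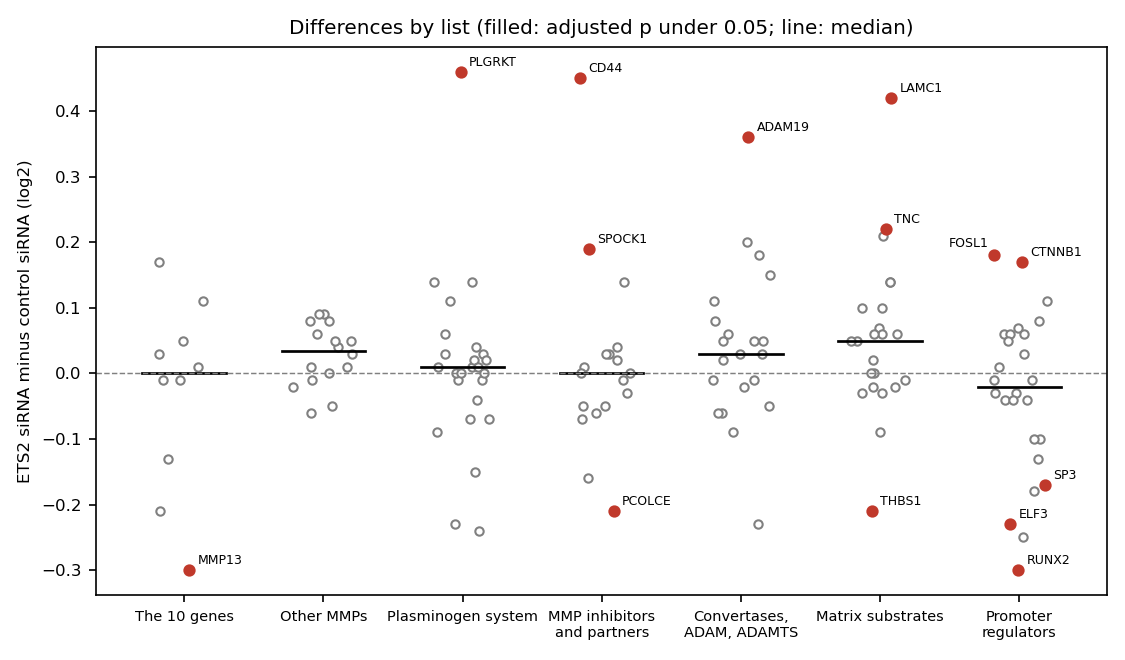
Difference of each measured gene, ETS2 siRNA minus control (log2), for the 10 genes and the 6 lists of related genes, with medians as horizontal lines. Filled points are genes with an adjusted p under 0.05 over all 18417 genes, 1 among the 10 (MMP13) and 13 in the lists.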

How the data were processed

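Labelled cRNA from 6 H441 cultures was read on Affymetrix human gene arrays. The authors deposited log2 expression levels made with RMA (background correction, normalization between arrays and summary of probes), per the submitters' processing notes; its version, its settings and the build were not given in the sources used here. Values were rounded to 2 decimals, as deposited, and ran from 3.21 to 14.51. RMA compresses differences of dim genes and removes shifts shared by all genes. No counts underlie arrays; their number limits the precision.

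Of 33297 probes, 19460 carried 1 symbol in the platform annotation, 19429 of them matched to a RefSeq gene of GRCh38.p14, with 0 symbols changed; the brightest probe per gene gave 18417 genes. No gene was filtered out. Differences were fitted with limma 3.58.1 (R 4.3.3; lmFit, eBayes, two-sided, Benjamini-Hochberg over all genes), without a block. Promoter letters were searched with Python 3.11.15. The fit was checked on simulated data.

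Genes named are the 10, ETS2, per list the changed members (at most 6; otherwise the 2 with the smallest p) and, for a changed gene of the 10, the 3 most correlated genes. The 10 genes and the lists were chosen with earlier results of these data known. Protein sequences were not used here. The alternatives were a replicate block, 3 rescalings, 2 filters on dim genes, 2 probe rules, 3 variance models and each array left out.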

Additional observations from a re-analysis of the deposited data

How the results depend on the processing

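The fall of ETS2 kept its direction and its call in all 17 alternatives. Over all genes, 904 changed, 420 higher and 484 lower. The balance was 396 higher and 349 lower when arrays were median-centred, 590 and 504 after quantile normalization and 396 and 382 after scaling on ribosomal protein genes. The count was 735 without control replicate 2 and lay between 213 and 421 without any other array. It was 1397 among genes above the floor, 1963 among the brighter genes alone, 322 when all probes were tested on their own, 1963 with an intensity trend and 1480 with array weights. Of the 10 genes, 1 changed, and 0 to 1 with an array left out. The number was 2 after quantile normalization and 2 among genes above the floor (MMP13 and TIMP2), 3 among the brighter genes, 3 with an intensity trend and 3 with array weights (MMP14 added), and 0 when all probes were tested on their own. The filters change both how many genes are tested and the genes from which limma estimates its variances. For none of the settings was the cause of the difference in count tested. MMP13 was called in 12 of 17 alternatives and never turned.

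Readings near 0 turned sign 12 times, in 4 uncalled genes. MMP15 (-0.05 to 0.04 with an array left out) moved from -0.01 to 0 when arrays were median-centred, 0.01 after quantile normalization, 0.05 with array weights, 0.02 and 0 without ETS2 siRNA replicates 1 and 3, and 0.04 without control replicate 2. PLAUR moved from -0.01 to 0 median-centred, 0.01 with array weights and 0.02 without control replicate 2. MMP1 (-0.06 to 0.15 with an array left out) moved from 0.03 to -0.02 with array weights and -0.06 without ETS2 siRNA replicate 1, and TIMP1 from 0.01 to -0.03 without control replicate 3.

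Replicate numbers are shared between the groups, but same-numbered arrays deviated together only weakly (r = 0.177, 0.181 and 0.035 across genes for numbers 1, 2 and 3), and not every array correlated best with its own number. With the number as a replicate block 604 genes changed, and of the 10 genes 1, MMP13 (adjusted p = 0.0351). MMP1, MMP7 and MMP10 are limited by signal at background.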
